A study of Mus musculus with 30 samples.

Results

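Colon 26 cells grown in culture were compared with the smallest tumors that the same cells formed in mice, over all genes. The comparison took 7 of the 30 RNA-seq libraries of the study, chosen by their labels alone, namely the 3 labelled as Colon 26 cell culture and the 4 labelled as Colon 26 tumors of the 100 mm3 class. Colon 26 is a colon carcinoma line derived from BALB/c mice, and its tumors were grown by implanting the cells in the flank, on the right side, of female mice of that strain. Their measured volumes were 119.18, 124.88, 121.78 and 102.9 mm3 for tumors 1 to 4, and ages are not given. CT-26, another BALB/c colon carcinoma line with 3 cultures and 4 tumors of the same class, served only to test whether the difference between tumor and culture was different in Colon 26. No label names an antibody for a tumor, so all were taken as untreated, although the treatment text attached to every sample describes antibody dosing. The labels do not say whether the 3 cultures were grown apart or whether each tumor came from its own mouse, so p-values measure only the spread between these libraries.

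A transplanted tumor is a mixture. The injected carcinoma cells are joined by macrophages, other leukocytes, fibroblasts, pericytes and blood vessels of the host, and the RNA of a whole tumor is the sum over all of them, whereas a culture holds the carcinoma cells alone. The same cells also leave a rich medium for a tissue in which nutrients, oxygen, matrix and cytokines are set by their neighbours. Amino acid shortage acts through the transcription factor Atf4, DNA damage through p53, and interferon from lymphocytes through receptors on the cells around them, each with its own well known set of target genes.

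Of 53431 genes in the table, 15946 had enough counts to be tested. A gene was called higher or lower when edgeR's adjusted p was at most 0.1 and its level differed by at least 1 on the log2 scale between tumors and cultures. Of the genes tested, 3321 (20.8%) were called higher in tumors and 975 (6.11%) were called lower. The median log2 difference over all genes tested was 0.05, with quartiles of -0.36 and 0.72, and the medians of the gene lists below stand beside these. Rises were often large, and 1961 called genes were more than 8-fold higher against 105 that were more than 8-fold lower. Most of the higher genes were hardly present in culture, since 2498 of them averaged under 1 CPM (counts of a library scaled to a common size with TMM factors) in the cultures and 622 had no count in any of them. A further class of 232 genes rose from at least 20 CPM in culture. Library totals were 36042918 to 39722554 counts in the cultures and 23597116 to 35677338 in the tumors, so 3 counts amounted to 0.0743 to 0.0831 CPM in a culture. Genes with at most 3 counts in every culture took 1.13% to 1.70% of the counts of a tumor.

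**Figure D1:**
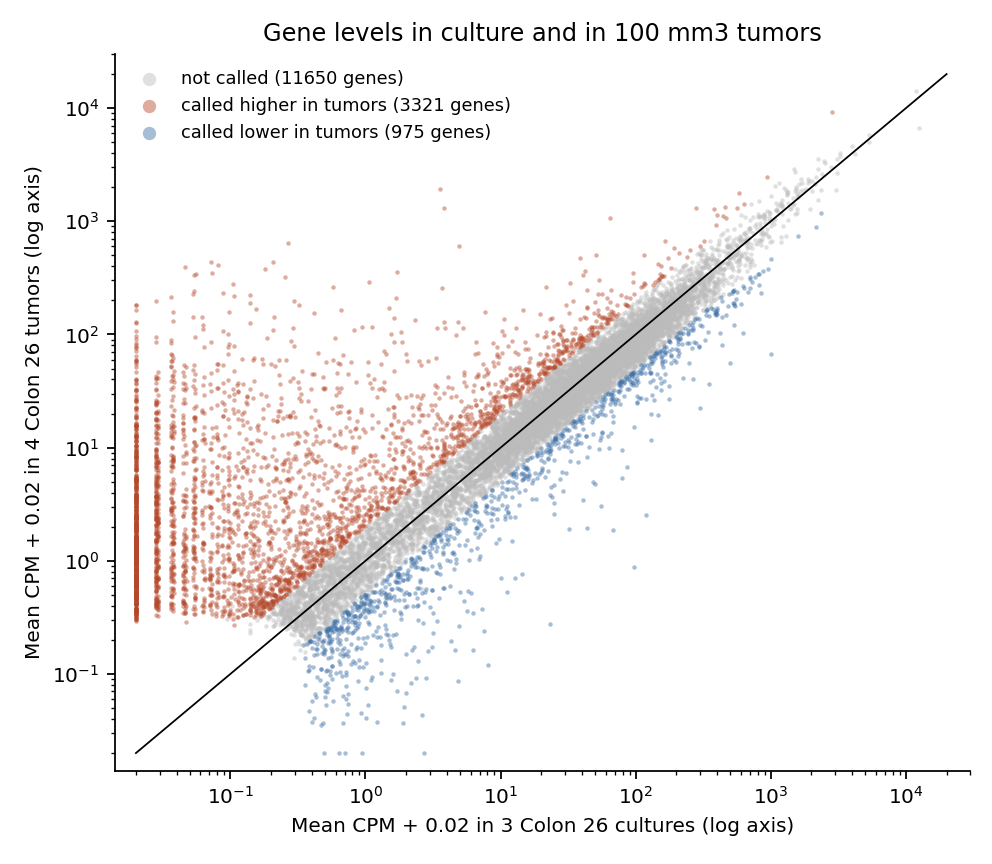
Each point is 1 of the 15946 genes tested, with its mean CPM in the 3 cultures on the x axis and in the 4 tumors on the y axis, both on log axes after a small offset that keeps genes without counts in view. The 3321 genes called higher lie above the line of equal levels and many of them stand at the left edge, where the cultures had few or no counts, while the 975 genes called lower lie below it.

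The label of a colon carcinoma was set against 15 marker genes of colon epithelium. Only 6 of the 15 were tested, because Epcam, Krt8, Krt18, Cldn3, Cldn4, Cdx1, Vil1, Muc2 and Tff3 were near or at 0 in both groups. Epcam, the adhesion protein that marks most epithelia, had no count in any culture. Cdx2, a transcription factor of the intestine, was present at 6.34, 5.87 and 6.07 CPM in the cultures and 5.0, 4.04, 4.69 and 4.66 CPM in the tumors and was not called. Cdh17, an intestinal cadherin, was not called either and differed by -0.29. Krt20, a keratin of colon surface cells, rose from 5.82, 5.5 and 5.37 CPM to 21.8, 16.3, 14.9 and 12.1 CPM, a log2 change of 1.55 ± 0.18 (estimate ± SE). Krt19, a keratin of ducts and crypts, reached 1.63, 1.70, 1.5 and 1.87 CPM in tumors 1 to 4, 64.8 times the level in the cultures with a 95% counting interval of 21.8 to 317. The cultures expressed Vim and Cdh2, genes of mesenchymal cells, at 2844, 2816 and 2915 CPM and 110.0, 114 and 119 CPM. Most of the listed markers by which colon epithelium is usually recognised were thus at or near 0 in these libraries, and the name is kept here as a label.

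The largest rises were in genes that the cultures did not express at all. All 10 of the genes with the largest fitted rise among those reaching 50 CPM had 0 counts in the 3 cultures, so their folds are lower bounds set against 3 counts over the group. H2-Ab1 and H2-Aa, the chains of an MHC class II molecule that presents peptide to helper T cells, reached 50.2, 288, 270.3 and 127 CPM and 51.7, 281, 275 and 124 CPM in tumors 1 to 4, at least 7329-fold and 7268-fold above the cultures. H2-Ab1 (ENSMUSG00000073421) lies on chromosome 17 at 34257689 to 34269419 of GRCm38, next to H2-Aa at 34282744 to 34287823. Igfbp3, a secreted binding protein of insulin-like growth factors, was at 191, 147, 156 and 162 CPM in the tumors, at least 6345-fold higher. It lies on chromosome 11 at 7206086 to 7213923 and was the most even of the 10 across the tumors.

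The rest of these 10 genes were mostly of the immune system. Cybb, the catalytic subunit of the phagocyte oxidase, was at 57.5, 141, 138 and 88.5 CPM in tumors 1 to 4, and Tyrobp, a signalling adaptor of myeloid cells, at 82.4, 99.7, 105 and 80.1 CPM. Tumors 2 and 3 were the highest for all of these, and tumor 1 or tumor 4 was the lowest. The chemokine Cxcl14 was at 109, 173, 126 and 101 CPM, at least 5067-fold above the cultures. Cxcl9, a chemokine induced by interferon gamma that attracts T cells, was the least even of the 10, at 12.7, 174, 153 and 48.4 CPM. Gm49339 shares its locus with Lilr4b and Lilrb4a, whose reads cannot be told apart from its own, and H2-Ea-ps is a polymorphic pseudogene in the reference whose reads may come from the BALB/c allele, so both values are uncertain.

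Markers of several leukocyte classes were higher in the tumors. A gene near 0 in the cultures could be tested only through its counts in the tumors, so a rise of such a gene was set by the filter. This also holds in lists whose members were all tested. At most 3 counts in every culture were seen for 8 of 12 macrophage, 7 of 12 endothelial, 5 of 6 NK cell and 5 of 5 mast cell markers. For all lists with such genes, here and below, the counts of members that rose and the levels are given as a description. Of all genes tested 20.8% were called higher. All 6 general leukocyte markers rose, with a median log2 change of 10.47, and their summed level went from 0.273 to 0.426 CPM in the cultures to 535, 757, 733 and 602 CPM in tumors 1 to 4. Ptprc, which encodes CD45, was at 0.0277, 0 and 0.0752 CPM in the cultures and 63.3, 123, 111 and 86.2 CPM in the tumors, a log2 change of 11.30 ± 0.48. Laptm5, a lysosomal protein of blood cells, rose from 0, 0.0248 and 0.0752 CPM to 202, 245, 246 and 214 CPM, and Coro1a, an actin regulator, and Cd52 of lymphocytes rose to 127, 186, 174 and 146 CPM and 22.1, 55.1, 49.1 and 31.7 CPM. In such bulk RNA, more cells of a type and more RNA per cell cannot be told apart.

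Macrophage genes were the most abundant of the leukocyte genes. All 12 markers rose, with a median log2 change of 12.86, or 11.18 with genes at 0 in culture set at their lower bounds. Lyz2, the lysozyme of macrophages and granulocytes, rose from 3.88, 3.57 and 3.24 CPM to 2112, 1614, 2125 and 1814 CPM, and Csf1r, the receptor that macrophages need to survive, from 0.0831, 0 and 0.0752 CPM to 316, 352, 365 and 349 CPM. Adgre1, which encodes F4/80, was absent from the cultures and at 60.5, 78.2, 95.6 and 73.1 CPM in the tumors, at least 2965-fold higher, and so was Ms4a7, a tetraspan protein of macrophages, at 33.4, 49.3, 62.8 and 42 CPM. C1qa, a subunit of the first complement component made by macrophages, had 3 counts over the cultures and 312, 442, 447 and 362 CPM in the tumors, 15241 times the level in the cultures with a 95% counting interval of 5215 to 73909. The summed level was even, from 3842 to 4485 CPM over the 4 tumors, with tumor 3 the highest. Mrc1, the mannose receptor, followed another order from Fcgr1, a high-affinity antibody receptor, with 299.6, 184, 222 and 340.0 CPM against 46.4, 114, 114 and 69 CPM in tumors 1 to 4.

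Lymphocyte genes were also higher but at much lower levels. Of 10 T cell markers 9 rose, with a median log2 change of 7.80, or 6.10 with genes at 0 in culture at their bounds. Cd8a, the coreceptor of cytotoxic T cells, had no count in the cultures and was at 0.433, 8.87, 4.31 and 1.61 CPM in tumors 1 to 4, at least 161-fold higher, and Cd3e, part of the T cell receptor complex, was at 0.567, 3.59, 2.15 and 1.06 CPM. Cd2 and Cd3d were likewise at 1.03, 2.57, 2.5 and 2.03 CPM and 0.533, 2.63, 1.92 and 1.10 CPM. The exception was Lck, a kinase of T cells, which the cultures themselves expressed at 6.65, 6.86 and 5.97 CPM and the tumors at 3.47, 9.47, 7.38 and 4.20 CPM. All 6 NK cell markers rose, among them Gzma at 2.10, 4.69, 4.42 and 3.18 CPM and Prf1, the pore-forming perforin, at 1.77, 9.86, 7.57 and 3.14 CPM. Gzma was at least 141-fold above the cultures, and Prf1 was at 681 times the level in the cultures with a 95% counting interval of 122 to 26937, from 1 count. The receptor genes Klrd1 and Ncr1 were at 0.300, 1.95, 1.19 and 0.551 CPM and 0.433, 1.5, 1.42 and 0.678 CPM. For both classes tumor 2 had the highest sum and tumor 1 the lowest, 44.3 and 11 CPM for T cells and 20.5 and 5.80 CPM for NK cells.

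Of the remaining leukocyte lists, all 5 mast cell markers had 0 counts in culture and rose, led by Kit, a receptor kinase, at 6.34, 4.97, 5.27 and 3.90 CPM, with the mast cell proteases Cpa3, Tpsb2 and Cma1 at 1.63, 1.41, 3.23 and 2.16 CPM, 1.87, 1.98, 4.07 and 1.95 CPM and 2.13, 1.78, 2.58 and 1.91 CPM. Of 8 neutrophil markers 5 were tested, all near 0 in the cultures, and the list summed to 12.3, 18.9, 21.9 and 14.5 CPM in tumors 1 to 4. Csf3r, the receptor for granulocyte colony-stimulating factor, was at 6.44, 12.8, 14.7 and 7.33 CPM, and S100a9, an abundant neutrophil protein, was at 1.40, 1.72, 2.15 and 2.46 CPM. Il1r2, a decoy receptor of interleukin-1, and Cxcr2, a chemokine receptor, reached 2.77, 2.52, 3.27 and 2.67 CPM and 0.467, 0.480, 0.730 and 0.975 CPM. The neutrophil markers Retnlg, Ly6g and Mmp8 had too few counts to be tested. Of 9 dendritic cell markers 8 rose, but at low levels, such as Xcr1, a receptor of cross-presenting dendritic cells, at 0.200, 1.92, 0.961 and 0.721 CPM and Siglech, of plasmacytoid cells, at 0.767, 1.64, 2.19 and 1.06 CPM. Flt3, a growth factor receptor of dendritic cells, was at 0.467, 1.13, 1.31 and 0.509 CPM and Cd209a at 1.63, 0.594, 1.46 and 1.40 CPM. Zbtb46 was not called, and the cultures already had 13.8, 13.9 and 13 CPM. Of 6 B cell markers only Cd79b was tested, through its counts in the tumors, where it was at 0.667, 0.763, 0.846 and 0.466 CPM against 2 counts over the cultures. Cd79a was on both sides of the cultures, at 0.0831, 0.0991 and 0.10 CPM in the cultures and 0.0667, 0.170, 0.0769 and 0.212 CPM in tumors 1 to 4, and like Ms4a1, Pax5 and Jchain was too low to be tested.

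**Figure D2:**
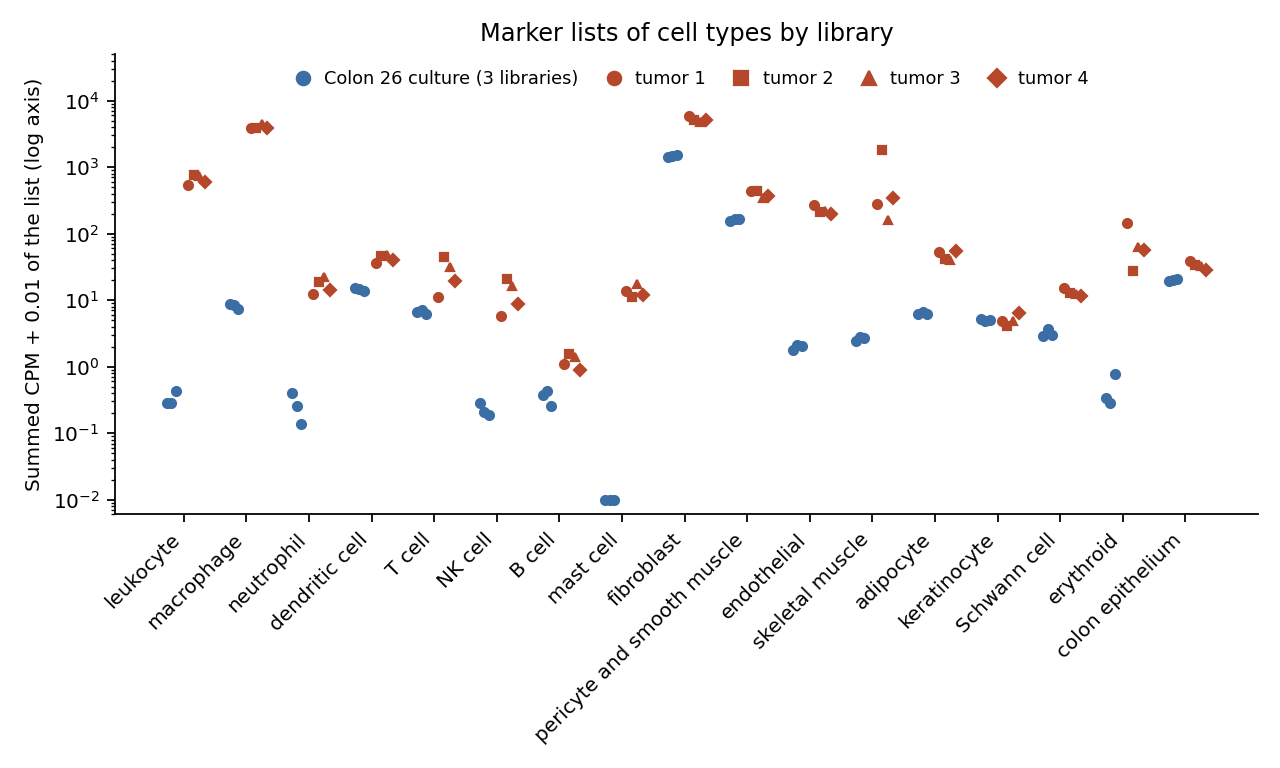
Each point is the summed CPM of a marker list in 1 library, on a log axis after a small offset, with the 3 cultures in blue and tumors 1 to 4 in red by shape. Leukocyte, macrophage, endothelial and skeletal muscle sums stood far above the cultures, keratinocyte sums did not, and the lists differed in which tumor was highest, such as tumor 2 for skeletal muscle at 1822 CPM and tumor 1 for erythroid genes at 142 CPM.

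Interferon-stimulated genes split into a part that rose and a part that did not. Of 30 such genes 15 were called higher (50%) and none lower, against 20.8% and 6.11% of all genes tested. Their median log2 change was 0.96. Among those that rose furthest were the immunity-related GTPase Iigp1 and the guanylate-binding protein Gbp2, known to respond strongly to interferon gamma, and also Mx1. Irf7, Ifit3, Ifi44 and Oasl2 were called higher too, by 1.91, 1.48, 1.45 and 1.10 on the log2 scale. Iigp1 was at 1.69, 1.93 and 1.86 CPM in the cultures and 14.4, 196, 161 and 48.7 CPM in tumors 1 to 4, a log2 change of 5.85 ± 0.98 at an adjusted p of 5.35e-04. Gbp2 went from 5.10, 4.91 and 5.67 CPM to 21.8, 192, 181 and 57.8 CPM, a log2 change of 4.44 ± 0.77. Irf1, a transcription factor that interferon induces early, was at 27.7, 27 and 28.5 CPM in the cultures and 48.9, 142, 133 and 77.7 CPM in the tumors. Zbp1, a sensor of nucleic acids, and Mx1, a gene of the Mx GTPase family, rose by 3.07 ± 0.54 and 4.11 ± 0.36. Iigp1, Gbp2 and Irf1 were lowest in tumor 1 and highest in tumors 2 and 3, and no tumor overlapped the cultures for them.

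The other 15 genes were not called, and some of them were at their highest in culture. Ifit1, an RNA-binding protein of the antiviral response, was at 15.5, 13.6 and 14.6 CPM in the cultures and 7.74, 11, 12.2 and 9.07 CPM in the tumors, a log2 difference of -0.54 ± 0.14. Isg15, a ubiquitin-like modifier, was at 27.2, 26.7 and 27.7 CPM and 14.3, 29.1, 27.5 and 16.4 CPM, and the RNA sensor Ddx58, also called RIG-I, at 45.6, 45.5 and 43.7 CPM and 24.6, 39.3, 42.8 and 31.5 CPM. Bst2, the membrane protein tetherin, was the most abundant of them in the tumors and differed by 0.68 ± 0.23, and Stat2, a transcription factor of the interferon response, by 0.87 ± 0.26. The summed level of the 30 genes was 515 to 527 CPM in the cultures and 549.6, 1838, 1709 and 816 CPM in tumors 1 to 4, so tumor 1 lay close to the cultures and tumor 2 was more than 3-fold above them.

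**Figure D3:**
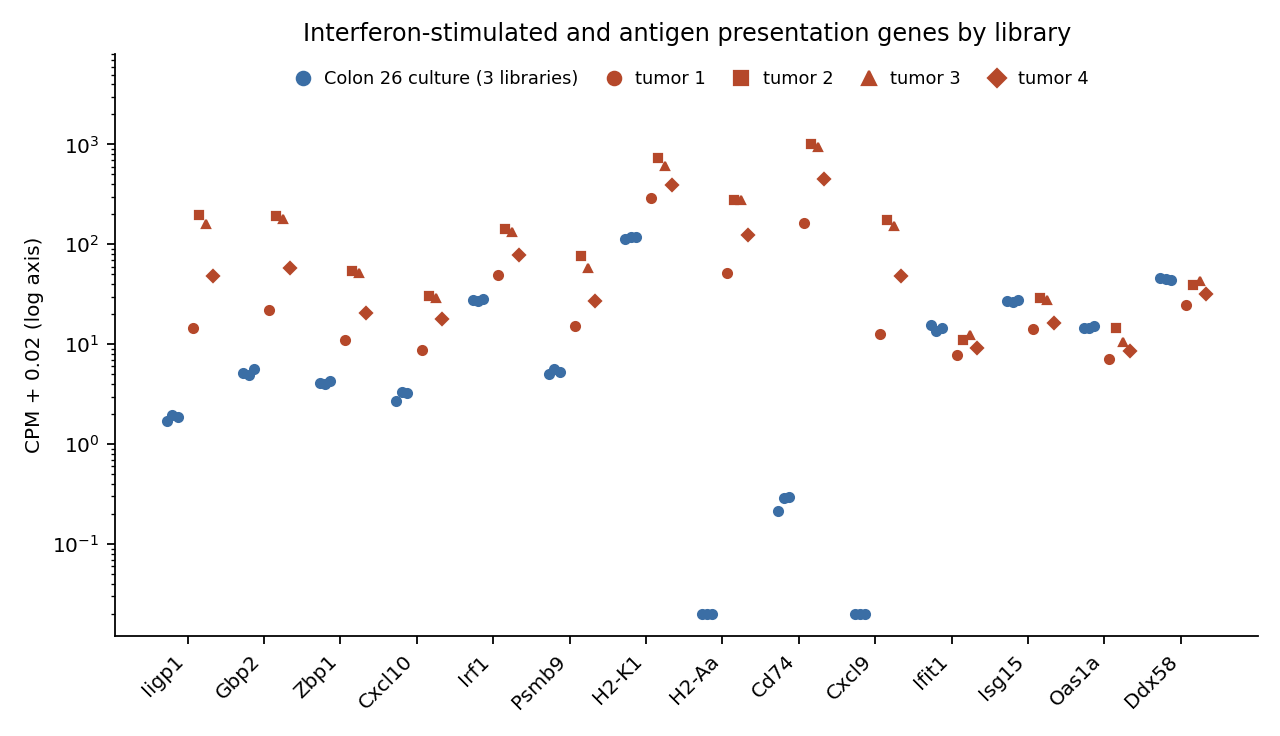
CPM of 14 genes in each library, on a log axis after a small offset, with cultures in blue and tumors 1 to 4 in red by shape. From Iigp1 to Cxcl9 every tumor was above the cultures and tumors 2 and 3 were the highest, whereas Ifit1, Oas1a and Ddx58 were below the cultures in all tumors and Isg15 was on both sides of them.

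Promoters of this list were read for the interferon-stimulated response element, because the list split in its response. The motif, GAAA followed by 2 bases of any kind and by GAAA again, was looked for on both strands in windows of 250 bases before to 50 after the start site from RefSeq for GRCm38.p6, which held 22 of the 30 genes. It was present in 15 of the 22 (68.2%) and in 3.99% of all 27025 promoters. It was found in 6 of the 10 matched genes that were called and in 9 of the 12 that were not. Stretches around the match are shown for a pair of genes that rose by a large factor and for the chemokine gene Cxcl10, with the match in capitals, as read along the strand of the gene.
Gbp2, chr3:142620574-142620643, plus strand: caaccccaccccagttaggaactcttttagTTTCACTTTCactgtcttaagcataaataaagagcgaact
Igtp, chr11:58199492-58199555, plus strand: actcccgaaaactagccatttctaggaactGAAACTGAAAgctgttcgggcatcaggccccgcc
Cxcl10, chr5:92349063-92349132, minus strand: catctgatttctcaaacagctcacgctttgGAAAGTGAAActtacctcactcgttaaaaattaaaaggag
The match lay 49 bases from the start site in Gbp2, where it ran opposite to the gene, 24 bases in Igtp and 203 bases in Cxcl10. Igtp, another immunity-related GTPase, was at 8.58, 9.71 and 10 CPM in culture and 15.6, 113, 96.7 and 34.4 CPM in the tumors, and Cxcl10 at 2.66, 3.34 and 3.21 CPM and 8.70, 30.5, 29.2 and 18 CPM.

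Antigen presentation followed the same order of tumors. Of 14 tested genes of MHC class I presentation 11 rose (78.6%, against 20.8% of all genes tested), with a median log2 change of 1.58. H2-K1, a class I heavy chain, went from 112, 117 and 119 CPM to 290.5, 733, 606 and 392 CPM, and B2m, the light chain, from 453, 422 and 448 CPM to 631, 1561, 1376 and 904 CPM. Psmb9, a subunit of the immunoproteasome, rose by 3.06 ± 0.53 on the log2 scale, Nlrc5, the activator of class I genes, by 1.98 ± 0.39, the immunoproteasome subunit Psmb10 by 2.85 ± 0.26 and the nonclassical class I gene H2-T23 by 3.14 ± 0.30. The peptide transporter subunit Tap1 rose by 1.15 ± 0.40, while Tap2 was not called, at 150.0, 163 and 165 CPM in the cultures and 84.1, 199, 151 and 99.1 CPM in the tumors. The chaperones Calr and Pdia3 were not called and differed by 0.05 ± 0.08 and 0.06 ± 0.05. All 7 tested class II genes rose, with a median log2 change of 10.21. Cd74, the invariant chain, went from 0.194, 0.273 and 0.276 CPM to 163, 1015, 949 and 453 CPM, and Ciita, the master regulator of the class, from 0, 0.0248 and 0.0502 CPM to 4.07, 23, 21.3 and 9.49 CPM, 578 times the level in the cultures with a 95% counting interval of 197 to 2806. H2-Eb1, another class II chain, rose to 43.3, 268, 245 and 110.3 CPM. MHC genes differ between BALB/c and the reference strain, so their levels are uncertain.

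Complement and chemokine genes rose almost throughout. Of 16 complement genes 13 rose (81.25%, against 20.8% of all genes tested). Of the 16, 7 had at most 3 counts in every culture, so this share is a description. The median log2 change of the 16 was 7.70, or 6.80 with genes at 0 in culture at their bounds. Cfb, the protease of the alternative pathway, went from 1.16, 1.59 and 1.30 CPM to 34.3, 97.3, 105 and 50.3 CPM, and C3, the central component, which the cultures made, from 24.3, 24.6 and 28.9 CPM to 63.3, 95.9, 101 and 65.9 CPM. C1qb and C1qc, the partners of C1qa, were at 272, 403, 386 and 281 CPM and 280.2, 399.8, 383 and 300.1 CPM, and C3ar1, a receptor for a fragment of C3, at 107, 138, 154 and 123 CPM. The proteases of the classical pathway C1ra and C1s1 were not called, with C1s1 at 50.5, 49.9 and 51.1 CPM in the cultures and 28.2, 55.8, 42.8 and 30.1 CPM in the tumors. Neither was C2, at 10, 9.98 and 10 CPM and 9.70, 24.1, 21.8 and 11.3 CPM. Of 21 tested chemokines 19 rose (90.5%), with a median log2 change of 9.19, or 6.48 at the bounds. Of all 24 listed, 13 had at most 3 counts in every culture, so this share too is a description. Ccl8 was absent from the cultures and even among tumors, at 71.8, 73.1, 87.4 and 73 CPM. Ccl2, the main attractant of monocytes, rose from 0.582, 0.495 and 0.702 CPM to 32.8, 46.1, 48.1 and 55.2 CPM. Ccl6 and Ccl9, by contrast with Cxcl9, were highest in tumor 1, at 139, 76.1, 93.5 and 117 CPM and 129.5, 79.2, 91.2 and 96.9 CPM. The neutrophil attractant Cxcl1 was at 0.914, 0.793 and 1.13 CPM in culture and 0.734, 0.622, 1.54 and 0.551 CPM in the tumors and was not called, nor was Cx3cl1, which differed by 0.51 ± 0.07.

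Checkpoint and suppressive genes rose with 2 exceptions. Of 14 tested genes 12 rose (85.7%) and 2 fell (14.3%), against 20.8% and 6.11% of all genes tested. Of the 15 listed, 7 had at most 3 counts in every culture, so the share that rose is a description. The median log2 change of the 14 was 5.14. Arg1, the arginase of suppressive myeloid cells, had 1 count over the cultures and 162, 198, 217 and 219 CPM in the tumors, 22929.7 times the level in the cultures with a 95% counting interval of 4115 to 905716. Cd274, which encodes PD-L1, was at 5.62, 5.75 and 5.92 CPM in culture and 6.77, 33.7, 37.5 and 15.3 CPM in tumors 1 to 4, a log2 change of 2.02 ± 0.52 at an adjusted p of 0.00626. Pdcd1, its receptor PD-1, had no count in culture and was at 0.800, 6.36, 4.07 and 1.61 CPM, and Ctla4 was at 1.03, 3.87, 2.92 and 2.20 CPM. Entpd1, the ectonucleotidase CD39, rose from 0 to 30.2, 51.9, 46.8 and 32.6 CPM. For Cd274 and Pdcd1 tumor 1 was again the lowest of the 4. Cd80, a ligand of CTLA-4, fell from 99.7, 103 and 107 CPM to 24.9, 23.2, 25.7 and 27 CPM, while its partner Cd86 rose from 0 to 15.3, 17.3, 18.9 and 13.9 CPM. Tigit, an inhibitory receptor of lymphocytes, fell from 15.4, 14.1 and 14.4 CPM to 4.53, 6.70, 5.38 and 4.62 CPM.

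Endothelial genes rose throughout, and most pericyte and smooth muscle genes rose too. All 12 endothelial markers rose, with a median log2 change of 9.08, or 8.51 at the bounds. Pecam1, the adhesion molecule CD31, had 2 counts over the cultures and 55.3, 44, 47.9 and 42.1 CPM in the tumors, 2759.8 times the level in the cultures with a 95% counting interval of 764 to 22795. Kdr, the main receptor of vascular endothelial growth factor, was at 20.6, 17.5, 16.8 and 16 CPM, Cldn5, a tight junction protein, at 8.24, 8.54, 10 and 7.42 CPM, and Emcn, a mucin-like protein of venous endothelium, at 14.4, 11, 11.3 and 8.65 CPM. Of 11 pericyte and smooth muscle markers 9 rose (81.8%, against 20.8% of all genes tested). Of the 11, 5 had at most 3 counts in every culture, so this share is a description. Rgs5, a pericyte gene, had no count in culture and 48, 26.4, 27.9 and 28.7 CPM in the tumors, at least 1274-fold higher, and Acta2, smooth muscle actin, rose from 0.443, 0.396 and 0.301 CPM to 49, 47.3, 38.2 and 42.7 CPM. The channel genes Kcnj8 and Abcc9 were at 7.20, 3.84, 4.07 and 4.37 CPM and 13.1, 9.47, 6.88 and 7.80 CPM. Cspg4 and Pdgfrb were not called, and the cultures expressed them at 80.3, 85.7 and 87.5 CPM and 70.2, 75.4 and 74.7 CPM.

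Of 11 fibroblast markers 10 rose (90.9%, against 20.8% of all genes tested), although the cultures shared some of them. Of the 11, 2 had at most 3 counts in every culture. Col3a1, a fibrillar collagen, went from 3.66, 3.99 and 3.69 CPM to 1659, 1162, 1188 and 1265 CPM, a log2 change of 8.44 ± 0.18. Lum, a small proteoglycan of connective tissue, was absent from the cultures and at 37.5, 29.2, 43.4 and 37.9 CPM in the tumors, and Postn, periostin, rose from 0.111, 0.124 and 0.125 CPM to 142, 119.6, 114 and 127 CPM, and Dcn, decorin, from 0.0831, 0.0495 and 0.125 CPM to 71.8, 75, 98.1 and 72.6 CPM. Dpt and Pi16, markers of resting fibroblasts, were uneven, at 20.9, 5.94, 5.88 and 11.7 CPM and 21.5, 3.90, 2.96 and 10.9 CPM, with tumor 1 the highest. Col1a2 was already at 1104, 1152 and 1174 CPM in culture and differed by 0.92 ± 0.05, short of the call.

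Matrix genes fell into those the cultures made and those they did not. Of 22 collagens 15 rose (68.2%, against 20.8% of all genes tested) and none fell, with a median log2 change of 1.96. Col6a3 and Col12a1 rose from 0.332, 0.347 and 0.502 CPM and 1.16, 0.917 and 1.03 CPM to 177, 143, 144 and 151 CPM and 223, 303, 335 and 307 CPM. Col1a1 rose from 267, 287 and 285 CPM to 1485, 1341, 1221 and 1228 CPM, and Col14a1 was at 51.8, 30.8, 25.1 and 39 CPM in the tumors, whereas Col5a1 differed by 0.49 ± 0.07. Of 18 glycoproteins and crosslinkers 12 rose (66.7%) and 2 fell (11.1%), against 20.8% and 6.11% of all genes tested. Tnc, tenascin C, showed the largest rise of them, from 0.138, 0.223 and 0.201 CPM to 386, 494, 486 and 385 CPM. Lox, which crosslinks collagen, rose from 0.0554, 0.0495 and 0.125 CPM to 92.1, 111, 95.8 and 101 CPM, and the proteoglycan Bgn from 1.66, 1.61 and 1.81 CPM to 359, 351, 386 and 318 CPM. Eln, elastin, was at 13.4, 7.18, 4.73 and 5.89 CPM in the tumors, 465 times the level in the cultures with a 95% counting interval of 128 to 3845. Thbs2, a thrombospondin, was not called and differed by -0.10 ± 0.09. Thbs1 and Fbln5, an adhesive glycoprotein and an elastic fibre protein, fell by 1.12 and 1.07 on the log2 scale. Fn1, fibronectin, was not called and was at 3064, 3269 and 3480.3 CPM in culture and 4818, 3354, 3522 and 4228 CPM in the tumors.

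Of 17 matrix proteases and inhibitors 10 rose (58.8%, against 20.8% of all genes tested) and none fell. Mmp12, the macrophage elastase, had 1 count over the cultures and 16.3, 31.1, 27.8 and 25.5 CPM in the tumors, 2949.6 times the level in the cultures with a 95% counting interval of 529 to 116541. Mmp2, a gelatinase, rose from 0.692, 0.471 and 0.301 CPM to 63.1, 57.2, 57.6 and 48.9 CPM. Mmp9, a gelatinase of leukocytes, and Serpine2, a protease inhibitor, rose to 18.8, 11.1, 20 and 17.8 CPM and 19.6, 12.3, 13.6 and 14.5 CPM. Timp2 was not called and differed by 0.33 ± 0.07. Timp3, an inhibitor bound to the matrix, was not called either, at 656, 651 and 684 CPM in the cultures and 611, 468, 403 and 414 CPM in the tumors. Mmp3 was lowest in tumor 2, at 33.7, 9.98, 21 and 27 CPM in tumors 1 to 4.

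Genes of skeletal muscle and blood were unequal between tumors. All 10 skeletal muscle genes rose, with a median log2 change of 11.32, or 10.51 at the bounds, but tumor 2 stood apart with a sum of 1822 CPM against 158 to 347 CPM in the others. Myh4, a fast myosin, was at 67.2, 467, 24 and 79.1 CPM in tumors 1 to 4 and had 2 counts over the cultures, 10643 times the level in the cultures with a 95% counting interval of 2946 to 87890.4. The calcium-binding protein Pvalb of fast fibres was at 5.63, 76.8, 1.42 and 8.18 CPM, at an adjusted p of 0.0106, and the troponin genes Tnnt3 and Tnni2 at 25.4, 156, 14.7 and 32.5 CPM and 15.4, 76.1, 7.34 and 17.8 CPM. Adipocyte and Schwann cell genes were more even, with sums of 40.2 to 55.1 CPM and 11.6 to 15.3 CPM. Of 8 adipocyte genes 6 were tested and rose, such as Fabp4, a fatty acid carrier, from 2.19, 2.85 and 2.43 CPM to 26.3, 19.1, 19.3 and 23.7 CPM and Adipoq, the hormone adiponectin, from 0 to 1.23, 0.396, 1.11 and 1.87 CPM. Cfd, the complement protease adipsin, reached 6.84, 2.97, 3.5 and 7.54 CPM and Cidec, a lipid droplet protein, 1.70, 0.594, 1.69 and 2.08 CPM. Of the keratinocyte markers only Krt10 was tested, and it was not called, at 5.10, 4.78 and 4.92 CPM and 4.63, 3.93, 4.73 and 4.15 CPM. Mbp, a myelin gene of Schwann cells, rose to 9.80, 8.22, 8.61 and 6.99 CPM. All 5 tested globin genes and erythroid markers rose, with tumor 1 the highest, where Hbb-bs was at 60, 12.1, 27.8 and 25.8 CPM in tumors 1 to 4. The globin genes Hba-a1 and Hba-a2 are near-identical to each other, as are Hbb-bs and Hbb-bt, so the separate values within each pair are uncertain.

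The list with the largest share of genes called lower was that of the amino acid response. Of 24 listed Atf4 targets 18 were called lower (75%) and none higher, against 6.11% of all genes tested, and the median log2 change was -1.51. Their summed level was 5897 to 6045 CPM in the cultures and 2229 to 2532 CPM in the tumors. Cth, cystathionine gamma-lyase, which makes cysteine, fell most, from 124, 109.8 and 122 CPM to 2.03, 3.05, 2.5 and 2.42 CPM, a log2 change of -5.56 ± 0.10 at an adjusted p of 9.17e-10. It lies on chromosome 3 at 157894248 to 157925077. Slc7a11, the cystine importer, fell from 80.4, 76.8 and 82 CPM to 3.30, 6.67, 6.5 and 5.17 CPM, and Trib3, a pseudokinase that restrains Atf4, from 302, 300.1 and 296 CPM to 14.9, 26.5, 27.5 and 20.3 CPM. All cultures lay far above all tumors for these genes.

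The same held along the routes of amino acid synthesis. Asns, asparagine synthetase, fell from 421, 408 and 422 CPM to 91.7, 111, 109 and 97.3 CPM, and Pycr1, the last step to proline, from 63.8, 61.2 and 64 CPM to 10.3, 9.98, 9.96 and 9.58 CPM. Phgdh and Psat1, the first steps to serine, fell by 1.51 and 1.25 on the log2 scale, and Mthfd2 and Shmt2 of mitochondrial folate metabolism by 1.79 and 1.08. The message of Atf4 itself fell from 704, 704 and 710.0 CPM to 280.5, 329, 312 and 306 CPM. Ddit3, the stress factor CHOP, and Chac1, which degrades glutathione, fell by 1.85 and 2.22. The 6 genes that were not called were Atf3, Atf5, Slc3a2, Nupr1, Ddit4 and Cebpb, with log2 differences of -0.46, -0.70, -0.96, -0.52, -0.07 and -0.16 in that order.

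The promoters of this list were read for TGATGNAA, the core of the element bound by Atf4 with a C/EBP partner, again on both strands. It was present in 8 of 22 matched genes (36.4%) and in 4.51% of all promoters, that is in 6 of the 16 matched genes called lower and in 2 of the 6 that were not called. Stretches are shown for 3 genes that fell, with each match in capitals, along the strand of the gene.
Slc7a11, chr3:50443623-50443690, minus strand: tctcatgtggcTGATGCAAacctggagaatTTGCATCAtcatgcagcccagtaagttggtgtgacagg
Pycr1, chr11:120643814-120643881, minus strand: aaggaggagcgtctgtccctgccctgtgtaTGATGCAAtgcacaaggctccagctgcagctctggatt
Chac1, chr2:119351019-119351086, plus strand: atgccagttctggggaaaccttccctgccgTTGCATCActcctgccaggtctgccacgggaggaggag
The Slc7a11 stretch held 2 matches in opposite directions.

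Other stress lists fell in part. Of 15 tested p53 targets 9 fell (60%) and none rose, against 6.11% and 20.8% of all genes tested. Their median log2 change was -1.12. Mdm2, the ligase that degrades p53, fell from 297, 289.8 and 291 CPM to 74.8, 75.9, 77.4 and 80.8 CPM, and Cdkn1a, the cell cycle inhibitor p21, from 333, 329.6 and 333 CPM to 144, 144, 163 and 147 CPM. Trp53inp1, an autophagy protein, fell by 2.16, and Eda2r, a receptor of the TNF family, by 1.84 on the log2 scale. Gdf15, a stress hormone, fell from 54.1, 55.9 and 54.9 CPM to 2.33, 3.36, 2.92 and 3.60 CPM. Sesn2 is on both this list and the Atf4 list, and fell by 1.96. Bax and Phlda3 were not called, with log2 differences of -0.70 ± 0.04 and -0.66 ± 0.08.

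Of 14 Nrf2 targets 5 fell (35.7%) and 1 rose (7.14%), against 6.11% and 20.8% of all genes tested. Their median log2 change was -0.63. Slc7a11 is also among them. Nqo1, a quinone reductase, fell from 25.4, 24 and 24.9 CPM to 2.83, 2.57, 2.04 and 2.92 CPM, and Txnrd1, thioredoxin reductase, from 398, 379 and 396 CPM to 149, 158, 152 and 156 CPM. Osgin1 and Gclc, the latter the rate-limiting enzyme of glutathione synthesis, fell by 1.76 and 1.15. Hmox1, heme oxygenase, which macrophages also express, was the gene that rose, from 59.6, 60.8 and 61.4 CPM to 141, 107, 136 and 121 CPM. Tkt and Pgd of the pentose phosphate pathway were not called.

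Among the 10 genes with the largest falls from at least 50 CPM, 7 were outside the Atf4 list. Car6, a secreted carbonic anhydrase, fell most of all, from 97.7, 95.4 and 99 CPM to 1.20, 0.791, 0.846 and 0.593 CPM, a log2 change of -6.80 ± 0.12. Cdsn, a protein of cell junctions in skin, fell from 67, 69.1 and 68.9 CPM to 1.60, 2.06, 2.15 and 1.57 CPM. Ptgs2, the inducible cyclooxygenase that makes prostaglandins, was the most abundant of the 10 and fell from 1017, 986 and 1024 CPM to 54.2, 63.8, 72.3 and 79.4 CPM, a log2 change of -3.91 ± 0.11 at an adjusted p of 9.70e-09. It lies on chromosome 1 at 150100031 to 150108227. Nefm, a neurofilament protein, Gadd45a, a DNA damage response gene, and Fam110c fell by 3.67, 3.49 and 3.40 on the log2 scale. Gadd45a overlaps a gene on the other strand, E230016M11Rik, and Nefm overlaps Nefl, and whether reads were counted by strand is not given in the sources used here. Of the 288 genes named here 63 overlap an exon of a gene on the other strand. On the same strand 17 overlap another gene, such as Igtp with Irgm2, which counting by strand cannot separate.

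**Figure D4:**
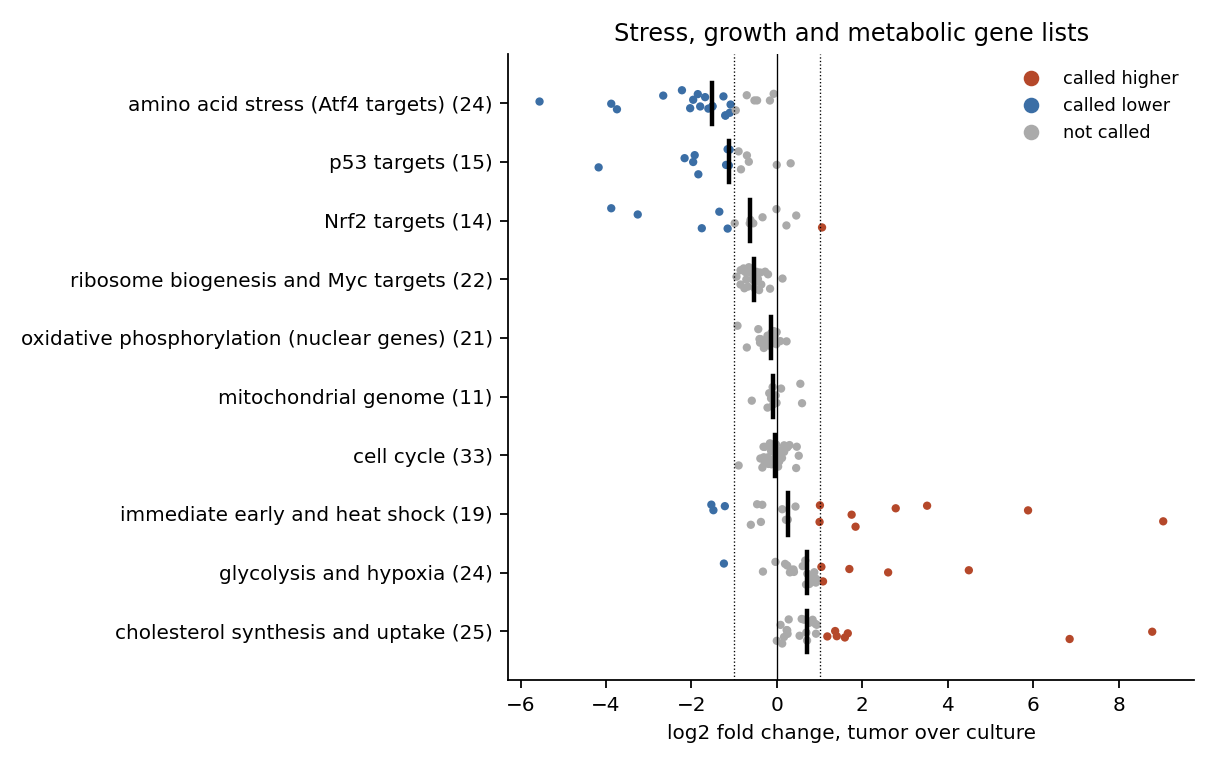
Each point is 1 tested gene of a list, placed by its log2 fold change of tumor over culture and coloured by its call, the black bar is the median of the list, and dotted lines mark a log2 change of 1 in either direction. The lists of Atf4 and p53 targets lay mostly to the left, with medians of -1.51 and -1.12, while cell cycle and respiratory genes stood around 0.

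No gene of the cell cycle, ribosome biogenesis or respiration lists passed the threshold of change. None of 33 cell cycle genes was called, and their median log2 difference was -0.05. The summed level was 4458 to 4694 CPM in the cultures and 4346 to 4605 CPM in the tumors. Mki67, the marker of dividing cells, was at 359.5, 345 and 361 CPM and 390.3, 444, 403 and 446 CPM, and Top2a, a topoisomerase of dividing cells, differed by -0.16 ± 0.05. Ccnb2, a cyclin of mitosis, differed by 0.51 ± 0.03. Rrm2, a subunit of ribonucleotide reductase, had the largest difference of the list, at 194, 188 and 193 CPM in culture and 97.3, 109, 98.8 and 107 CPM in the tumors. None of 22 genes of ribosome biogenesis and Myc targets was called, at a median of -0.54, but 21 of them were below their culture levels and their sum was 6822 to 7153 CPM in the cultures and 4909 to 5108 CPM in the tumors, with Npm1 and Ncl, a pair of nucleolar proteins, at -0.39 ± 0.04 and -0.27 ± 0.04. None of 21 nuclear genes of oxidative phosphorylation was called, at a median of -0.13, with the ATP synthase genes Atp5b and Atp5a1 at -0.39 ± 0.03 and -0.13 ± 0.03. None of 11 tested genes of the mitochondrial genome was called, at a median of -0.08, with mt-Co1 at -0.08 ± 0.05 and mt-Cytb at -0.22 ± 0.04. The motif TTTGAA, the core of an element common in cell cycle promoters, was in 12 of 27 matched cell cycle promoters (44.4%) and in 20.2% of all. The share of counts on the mitochondrial genome was 1.57% ± 0.0431 (SD, n = 3) in the cultures and 1.38% ± 0.0534 (SD, n = 4) in the tumors, with an exact two-sided permutation p of 0.0571, the smallest that 3 against 4 libraries can give. At an adjusted p of at most 0.1 alone, with no minimum change, 12581 of the 15946 genes passed, so many of these small differences were larger than the spread between libraries.

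Of 25 genes of cholesterol synthesis and uptake 7 rose (28%) and none fell, near the 20.8% of all genes tested that rose, with a median log2 change of 0.71. Idi1 and Hmgcs1, enzymes of the mevalonate pathway, rose from 25.7, 24.1 and 24.7 CPM and 51.7, 49.2 and 52.3 CPM to 80.1, 62.9, 83.8 and 88 CPM and 138, 107, 143 and 139 CPM. Acat2, an enzyme of the first step, rose by 1.59 ± 0.11, while Fdps, further along the route, differed by 0.76 ± 0.07 and was not called. Srebf2, the transcription factor of the pathway, differed by 0.28 ± 0.04 and was not called. The sterol element TCACNCCAC was in 1 of 17 matched promoters (5.88%) and in 1.44% of all.

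Of 24 genes of glycolysis and hypoxia 5 rose, the same share as the 20.8% of all genes tested that rose. In this list 1 gene fell (4.17%, against 6.11% of all genes tested), and the median log2 change was 0.70. Car9, a carbonic anhydrase of hypoxic cells, rose from 34.1, 36.4 and 36 CPM to 91.6, 134, 118 and 117 CPM, Ankrd37 from 4.26, 4.71 and 4.94 CPM to 22.9, 28.7, 31.5 and 30.1 CPM, and Adm, the vasodilator adrenomedullin, from 0.166, 0.248 and 0.226 CPM to 4.57, 4.49, 5.42 and 5.21 CPM. The glucose transporter Slc2a1 and the phosphofructokinase Pfkl rose by 1.04 ± 0.12 and 1.08 ± 0.08. Vegfa, the vascular growth factor that hypoxia induces, went the other way, from 398, 402 and 409 CPM to 145, 182, 179 and 176 CPM, a log2 change of -1.24 ± 0.07. Pgk1, Pkm and Ldha were not called, with Pkm at 0.68, and tumor 1 was the lowest tumor for 22 of the 24 genes, for instance 1791, 2330.0, 2289 and 2139 CPM of Ldha in tumors 1 to 4.

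Early response genes moved in both directions, with 8 of 19 higher (42.1%) and 3 lower (15.8%), against 20.8% and 6.11% of all genes tested. Fos rose from 1.47, 1.76 and 1.58 CPM to 11.8, 18.7, 22.1 and 21.2 CPM, while Egr1, an early growth response factor, fell from 214, 209 and 219 CPM to 82.2, 76.5, 95.2 and 115 CPM. Klf2, a factor of quiescent endothelium and lymphocytes, rose from 11.4, 10.9 and 11.9 CPM to 92.5, 76.7, 74.7 and 69.2 CPM. The inducible heat shock gene Hspa1b was highest in tumors 3 and 4, at 52.5, 79.7, 217 and 193 CPM, against 2.46, 2.55 and 1.86 CPM in the cultures, and its reads can be shared with the near-identical Hspa1a. Ier3 and Btg2, the latter an antiproliferative gene, fell by 1.53 and 1.49, and Jun, Junb and Klf6 were not called.

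Of 19 tested cytokines and growth factors 9 rose (47.4%) and 4 fell (21.1%), against 20.8% and 6.11% of all genes tested. Of the 23 listed, 5 had at most 3 counts in every culture, so the share that rose is a description. The 4 that fell were among those the cultures made in quantity. Csf1, the growth factor of macrophages, fell from 851, 881 and 899 CPM to 326, 379.8, 365 and 393 CPM, and Lif, a cytokine of the interleukin-6 family, from 128, 134 and 133 CPM to 30.5, 28.4, 29.1 and 28.7 CPM. The other 2 were Vegfa and Gdf15, given above. The cytokines Il1b, Tnf and Osm rose from under 0.1 CPM to 3.20, 6.87, 11.7 and 11.5 CPM, 1.5, 3.99, 4.42 and 3.14 CPM and 2.77, 1.92, 3.77 and 3.69 CPM. Il33, an alarmin of stromal cells, rose from 3.10, 2.92 and 3.66 CPM to 35.5, 30.1, 43.9 and 34.8 CPM, and Tgfb1 by 1.21 ± 0.04. Vegfc, a growth factor of lymphatic vessels, was at 1.87, 2.12, 1.73 and 1.70 CPM in the tumors, and Tgfb3 differed by 0.35 ± 0.09. Spp1, osteopontin, was the most abundant of the list, at 12544, 12302 and 12761 CPM in the cultures and 7865, 5592, 6545 and 6434 CPM in the tumors, and with a log2 difference of -0.92 ± 0.10 it was not called.

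Genes of the mesenchymal state were expressed in cultures and tumors alike. Of 11 tested genes of the epithelial and mesenchymal states 5 rose (45.5%) and 1 fell (9.09%), against 20.8% and 6.11% of all genes tested. Vim, vimentin, rose from 2844, 2816 and 2915 CPM to 9438, 8642, 9490.1 and 9519 CPM and S100a4 by 1.61 ± 0.05 on the log2 scale, both also expressed by macrophages and fibroblasts. Snai1 rose by 1.65 ± 0.10 and Snai2 fell by 2.0, and both encode repressors of epithelial genes. Itga5, a fibronectin receptor subunit, rose by 2.13 ± 0.09. Zeb2 and Cdh2 differed by 0.01 ± 0.05 and -0.29 ± 0.04 and were not called. Cdh1, E-cadherin, had 3 counts over the cultures and was at 3.30, 2.18, 2.69 and 3.35 CPM in the tumors, 109.6 times the level in the cultures with a 95% counting interval of 37.2 to 534.

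The study's own list of Wnt ligands and Wnt-regulated genes, which was chosen on these samples and is no independent evidence of its direction, held 17 genes. Of the 15 that were tested 5 rose (33.3%) and 2 fell (13.3%), against 20.8% and 6.11% of all genes tested. Wnt6 rose from 1.5, 1.61 and 1.33 CPM to 14.2, 7.43, 8.0 and 9.45 CPM, and Wnt10a, the most abundant of the ligands, from 72.6, 73.4 and 75.5 CPM to 179, 139, 148 and 147 CPM. Wnt5a, Wnt5b and Wnt10b differed by -0.22 ± 0.08, 0.19 ± 0.24 and 0.77 ± 0.05 and were not called. Bmp2 rose by 1.56 ± 0.10 and Bmp4 fell by 1.48, both ligands of the bone morphogenetic family. Nfatc4 and Prkd1 rose by 2.40 ± 0.09 and 3.34 ± 0.33. Itga3, an integrin subunit, was not called and differed by -0.17 ± 0.04. Axin2, the feedback inhibitor that reports on beta-catenin, fell from 5.12, 4.91 and 4.74 CPM to 1.90, 1.87, 1.73 and 1.70 CPM. Of 8 tested feedback targets Ascl2 and Tcf7 rose (25%, near the 20.8% of all genes tested), by 2.09 ± 0.39 and 1.17 ± 0.25, both at low levels, 0.400, 0.339, 0.500 and 0.424 CPM and 1.27, 1.05, 1.27 and 1.06 CPM in tumors 1 to 4, and Tcf7 missed the threshold without culture 3. Ccnd1 and Cd44 were not called, with differences of 0.11 ± 0.04 and 0.74 ± 0.04.

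Genes that the cultures already expressed at 20 CPM or more and that rose furthest were led by Tmsb4x, thymosin beta 4, which binds actin and is abundant in leukocytes. It rose from 64.1, 61.8 and 66.1 CPM to 999, 1095, 1185 and 988 CPM, a log2 change of 4.06 ± 0.08, and has many near-identical copies in the genome. Aqp1, a water channel of endothelium, rose from 39.8, 38.6 and 37.7 CPM to 574, 446, 426 and 469 CPM, and Ucp2, a mitochondrial carrier, from 21.7, 20.3 and 22.9 CPM to 249.8, 289, 299 and 214 CPM. Lgmn, a lysosomal protease of macrophages, and Msn, which links actin to the membrane, rose by 3.29 ± 0.07 and 3.12 ± 0.08. Tsc22d3 and Per1, both known as glucocorticoid-induced genes, rose to 535, 360.2, 342 and 221 CPM and 209, 186, 174 and 153 CPM in tumors 1 to 4, from 42.2, 41.2 and 42.4 CPM and 30.4, 32.8 and 28.5 CPM, with tumor 1 the highest and tumor 4 the lowest for both. Cd14, a coreceptor for bacterial endotoxin on macrophages, rose from 23.9, 23.3 and 21.9 CPM to 143, 120.2, 139.9 and 140.0 CPM. Plau, the urokinase that activates plasmin, was lowest in tumor 1, at 90.4, 134, 163 and 174 CPM, and Col6a1 rose by 3.03 ± 0.16.

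The same contrast was then set beside that of CT-26 in a joint fit of 14 libraries, which tested 16501 genes for a difference of the differences. In 1368 genes (8.29%) the change from culture to tumor was called higher in Colon 26 and in 1536 (9.31%) lower. Of the 3266 genes higher in Colon 26 tumors that were tested in CT-26, 2608 were also called higher there and 50 lower, while of 963 lower in Colon 26 tumors 552 were called lower and 63 higher. The joint difference was called for 1032 of the 3266 genes that rose and 287 of the 963 that fell in Colon 26, against 2904 of all 16501. Culture levels of the lines differed too, so a difference of changes can come from either end.

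Lists with calls in 1 direction only included those of interferon, cell cycle, the amino acid response, MHC class I presentation, macrophages and the mitochondrial genome. Among the 30 interferon-stimulated genes the change was called lower in Colon 26 for 25 and higher for none. Of all genes tested 9.31% were called lower and 8.29% higher. The medians of the list were 0.90 in Colon 26 and 3.24 in CT-26. For Ifit1 the log2 difference was -0.60 in Colon 26 and 3.42 in CT-26. Among 33 cell cycle genes the change was called lower in Colon 26 for 25 and higher for none, against the same shares. The medians were -0.11 and 1.35. The summed cell cycle level was 4480.1 ± 133 CPM (SD, n = 3, scaled over all 30 libraries) in Colon 26 cultures and 4364 ± 130.0 (SD, n = 4) in Colon 26 tumors, against 2246 ± 59.1 (SD, n = 3) in CT-26 cultures and 5419.5 ± 516 (SD, n = 4) in CT-26 tumors, so the lines lay further apart in culture than in tumors. For example, Ccna2, cyclin A2, had a log2 difference of 0.24 in Colon 26 and 2.36 in CT-26.

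Among 24 Atf4 targets the change was called lower in Colon 26 for 13 and higher for none, against 9.31% and 8.29% of all genes. The medians were -1.57 and -0.56. Of the 13, 10 were called lower in Colon 26 tumors, and the others, Atf3, Atf5 and Ddit4, were not called there and had changes of 6.25, 0.58 and 1.38 in CT-26. Asns had log2 changes of -2.09 in Colon 26 and -0.73 in CT-26, the latter short of the 2-fold threshold, and Cth fell by 5.62 and 2.92. Of 11 tested mitochondrial genes 6 had a change called higher in Colon 26, against 8.29% of all genes. Their sum was 14736 ± 561 CPM in Colon 26 cultures and 31557 ± 1500.3 CPM in CT-26 cultures (SD, n = 3 each) but 13160.4 ± 506 and 12974 ± 827 CPM in the tumors (SD, n = 4 each). Of 12 macrophage genes 7 had a change called higher in Colon 26, against the same 8.29%. Colon 26 cultures held 8.01 ± 0.843 CPM of the list against 69.2 ± 4.10 CPM in CT-26 cultures (SD, n = 3 each). No call in either direction was made for the 21 respiratory genes of the nucleus, 10 skeletal muscle, 5 mast cell or 5 erythroid genes. Of all genes 8.29% were called higher and 9.31% lower, so no call among 5 or 10 genes is close to those shares. All 5 mast cell genes had 0 counts in Colon 26 cultures, so this test could hardly decide for them. Their sum was 13.4 ± 2.83 CPM in Colon 26 tumors and 107 ± 46.0 CPM in CT-26 tumors (SD, n = 4 each).

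Some single genes at the ends of this test were near 0 in the cultures of one line and not of the other. App, the amyloid precursor protein, was at 0.332, 0.198 and 0.301 CPM in Colon 26 cultures and 169, 223, 205 and 193 CPM in Colon 26 tumors, while CT-26 had 743 ± 21.2 CPM (SD, n = 3) in culture and 416 ± 82.1 CPM (SD, n = 4) in tumors. Its change was 10.24 higher in Colon 26, the largest among called genes reaching 50 CPM in a Colon 26 group, at an adjusted p of 2.83e-11. It lies on chromosome 16 at 84949685 to 85173766. Rarres2, the chemoattractant chemerin, Cd74, Plek, a platelet and leukocyte protein, and Cd53 of leukocytes followed, with changes higher by 7.37, 6.31, 5.97 and 5.94. At the other end were Thbd, thrombomodulin of endothelium, Plau, the myelin protein gene Pmp22, the matrix inhibitor of calcification Mgp and the lipid transfer protein gene Pltp, with changes lower by 7.02, 6.85, 6.82, 6.76 and 6.61. Thbd was at 155, 154 and 161 CPM in Colon 26 cultures and fell to 58.4, 49.9, 50.6 and 60.7 CPM in the tumors, whereas in CT-26 it rose from 0.138 ± 0.0830 CPM (SD, n = 3) to 6.17 ± 2.79 CPM (SD, n = 4). Plau was at 0.192 ± 0.0942 CPM (SD, n = 3) in CT-26 cultures and 127 ± 48.1 CPM (SD, n = 4) in CT-26 tumors, near the level of Colon 26 tumors.

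**Figure D5:**
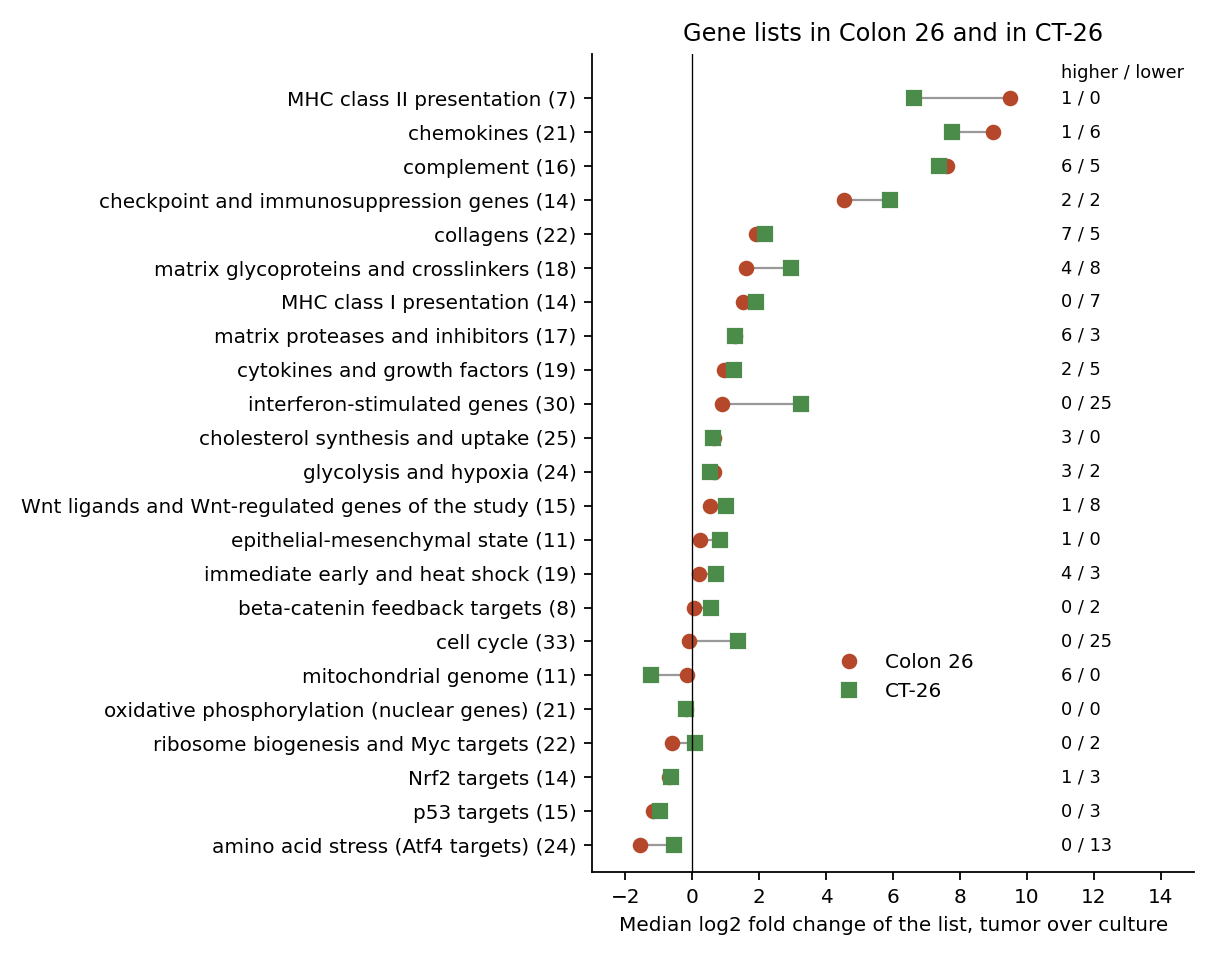
Median log2 fold change of tumor over culture of each list in Colon 26 (red circles) and CT-26 (green squares) from the joint fit, with the number of genes of the list whose change was called higher or lower in Colon 26 at the right. Interferon-stimulated genes and cell cycle genes stood apart, with 0 higher and 25 lower each, while nuclear genes of oxidative phosphorylation had none in either direction. Of all 16501 genes tested 8.29% were called higher and 9.31% lower.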

How the data were processed

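RNA-seq libraries were made from poly(A) RNA, and the authors counted reads per gene of Ensembl release 78 with Array Studio, as the study's methods state. The deposited tables hold estimated counts per gene, of which 23.0% of the values above 0 are not whole, and FPKM values, which the authors scaled to gene length and depth. The aligner, genome build and strand setting are not given in the sources used here. Estimated counts were rounded, scaled with TMM factors and tested with edgeR 4.0.16 (filterByExpr, glmQLFit and glmQLFTest, R 4.3.3) with Benjamini-Hochberg adjustment, and standard errors were derived from the F statistic. Genes were called at an adjusted p of at most 0.1 and a log2 change of at least 1, the thresholds of the study, whose tool was DESeq2 1.24.0. DESeq2 1.42.0 and limma 3.58.1 on log2 FPKM were alternatives. The interaction was fitted on 14 libraries. The script was tested on simulated data. Symbols and positions were taken from GENCODE vM21 for GRCm38, which matched 52207 of 53431 identifiers, and promoters from RefSeq for GRCm38.p6. Where a gene had no count in culture its fold was bounded with 3 counts over the group, and with 1 to 3 counts an exact counting interval was given, which covers counting error only.

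All libraries were counted as separate, since between libraries of a group the chi-square per degree of freedom was 2.91 to 4.53 for cultures and 9.86 to 34.2 for tumors. Named were the 10 called genes with the largest rise and fall that reached 50 CPM, the 10 with the largest rise from 20 CPM in culture, up to 4 called and 2 uncalled members of each list by size and level, the study's Wnt ligands, and the 5 genes at each end of the interaction. Some genes that these rules select are not reported here. Other members were added for their known roles after values were seen. The lists and the comparison were chosen with earlier results of these data known. The alternatives were other scalings, filters, thresholds and tools, a fit of all 30 libraries, thinning to the smallest library and leaving out each library in turn.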

Additional observations from a re-analysis of the deposited data

Results flagged for a closer look

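In 23 of 329 sets of 4 tumors, 1 tumor lay far from the other 3 by Dixon's gap criterion, which chance gives in about 1 of 20 sets. Tumor 1 was far below the others for Chac1 at 8.70 CPM and Vegfa at 145 CPM. Tumor 1 was far above the others for Kcnj8 at 7.20 CPM, Phlda3 at 158 CPM and Rgs5 at 48.0 CPM. Tumor 2 was far below the others for Cd14 at 120.2 CPM, Hmgcs1 at 107 CPM, Vim at 8642 CPM, the summed cholesterol list at 1851 CPM and the summed epithelial-mesenchymal list at 10934 CPM. Tumor 2 was far above the others for Myh4 at 467 CPM, Pvalb at 76.8 CPM, Tnni2 at 76.1 CPM, Tnnt3 at 156 CPM and the summed skeletal muscle list at 1822 CPM. Tumor 3 was far above the others for Ccl8 at 87.4 CPM, Cdkn1a at 163 CPM, Dcn at 98.1 CPM, Tpsb2 at 4.07 CPM and the summed macrophage list at 4485 CPM. Tumor 4 was far below the others for Myc at 139.6 CPM. Tumor 4 was far above the others for Cdx1 at 0.0424 CPM and Cldn4 at 0.212 CPM. Over the 4 tumors Cdx1 had 1 count and Cldn4 had 6, so both rest on a few reads. Of these, Myh4, Pvalb, Tnni2 and Tnnt3 are skeletal muscle genes, and all 4 were high in tumor 2.

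The change from culture to tumor differed between Colon 26 and CT-26, by the test of the difference itself, for 118 of 273 genes named in the report. Of all 16501 genes tested it was called for 2904. Some genes were named for large changes, for this difference itself or after values were seen. The count of 118 therefore does not measure how often the lines differ. The log2 difference of the changes, Colon 26 minus CT-26, is given for each. Among Atf4 targets, it was negative for Atf3 (-6.77), Cth (-2.70), Slc7a11 (-2.14), Trib3 (-1.78), Ddit4 (-1.52), Mthfd2 (-1.50), Asns (-1.36), Atf5 (-1.34), Psat1 (-1.31), Shmt2 (-1.30), Pycr1 (-1.18) and Phgdh (-1.11). Among Wnt, early response and epithelial-mesenchymal genes, it was positive for Krt19 (3.68), Hspa1b (2.53), Prkd1 (2.28), Klf6 (1.23) and Itga5 (1.10), and negative for Bmp4 (-5.22), Wnt5a (-3.64), Axin2 (-3.60), Tcf7 (-2.89), Btg2 (-1.52), Bmp2 (-1.25), Nfatc4 (-1.24) and Wnt10a (-1.21). Among antigen presentation genes, it was positive for Cd74 (6.31), and negative for H2-T23 (-2.59), Psmb9 (-1.83), Tap1 (-1.77), Psmb10 (-1.20) and Tap2 (-1.18). Among cell cycle genes, it was negative for Rrm2 (-2.41), Ccna2 (-2.12), Top2a (-1.82), Ccnb2 (-1.66) and Mki67 (-1.54). Among complement, chemokine, cytokine and checkpoint genes, it was positive for Vegfc (4.53), C3ar1 (4.21) and Ctla4 (3.95), and negative for C2 (-7.91), Gdf15 (-5.39), Ccl2 (-4.08), C3 (-3.71), Cx3cl1 (-3.51), Cfb (-3.16), C1s1 (-2.33), C1ra (-2.15), Il33 (-2.11), Spp1 (-1.27), Lif (-1.18) and Ccl9 (-1.17). Among genes outside the lists, it was positive for App (10.24), Rarres2 (7.37), Plek (5.97), Tmsb4x (1.94) and Lgmn (1.09), and negative for Thbd (-7.02), Pmp22 (-6.82), Pltp (-6.61), Aqp1 (-2.77), Car6 (-2.32), Nefm (-1.96), Cdsn (-1.69), Fam110c (-1.60) and Ucp2 (-1.42). Among interferon-stimulated genes, it was negative for Ifit1 (-4.03), Cxcl10 (-3.59), Zbp1 (-3.41), Mx1 (-2.47), Isg15 (-2.24), Igtp (-2.04), Ddx58 (-1.78), Oas1a (-1.65), Stat2 (-1.53), Irf1 (-1.26) and Bst2 (-1.03). Among leukocyte markers, it was positive for Cd53 (5.94), Tyrobp (5.21), Siglech (4.46), C1qa (4.08), C1qb (3.94), C1qc (3.88), Laptm5 (3.70), Csf1r (3.62), Coro1a (3.43) and Lyz2 (1.08), and negative for Lck (-2.10). Among markers of stroma, vessels and other tissue, it was positive for Pi16 (5.14), Postn (4.11), Dcn (4.07) and Col3a1 (1.84), and negative for Fabp4 (-4.28), Cspg4 (-3.78), Pdgfrb (-1.38), Col1a1 (-1.28) and Mbp (-1.26). Among matrix genes, it was positive for Col14a1 (6.88), Tnc (4.78), Serpine2 (4.31), Col6a3 (3.08), Mmp9 (2.58), Col12a1 (2.07), Bgn (1.20) and Timp2 (1.06), and negative for Plau (-6.85), Mgp (-6.76), Timp3 (-5.12), Mmp3 (-3.36), Thbs1 (-2.26), Fbln5 (-2.13), Thbs2 (-1.66) and Col6a1 (-1.55). Among metabolic genes and genes of the mitochondrial genome, it was positive for Ankrd37 (1.11) and mt-Cytb (1.05), and negative for Adm (-2.44). Among p53 and Nrf2 targets, it was positive for Hmox1 (2.17), and negative for Nqo1 (-5.16) and Osgin1 (-1.22).

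The culture levels of the lines differed for many of these genes, and for genes with few counts in the cultures of either line the size of the difference depends on the prior count of the fit.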

How the results depend on the processing

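Each named gene that was called kept its direction under each alternative in which it was tested. Of 273 named genes tested, 10 lost their call with glmTreat against a log2 change of 1, 22 with limma on log2(FPKM + 1) and 3 (Slc2a1, Tap1 and Tcf7) with limma on log2(FPKM + 0.1), and 176 were tested with at least 10 counts in every library. With at least 10 counts required in every library, which leaves out genes absent from culture, 1255 genes were higher and 563 lower, and cytokines and growth factors higher fell to 2, fewer than the 4 lower. With limma on log2(FPKM + 1) these counts were 1470 and 476, and without a minimum change 6800 and 5781, with 8421 for the interaction. DESeq2 called 4176 and 1085, of which 3274 and 947 were shared, and no filter on low counts gave 4698 and 1436. The share of calls that were higher was 77.3% with TMM, 77.7% with RLE and 76.0% with library size, and the median of all genes 0.05, 0.06 and 0.03. Leaving out 1 library gave 3017 to 3503 higher, 941 to 1018 lower and 2761 to 2875 in the interaction. Without 1 library Tap1 (0.84 without tumor 2), Mgp (0.97) and Wnt10a (0.98) without tumor 1, Slc2a1 (0.99 without tumor 3) and Tcf7 (0.98 without culture 3) missed the log2 change of 1, and Tap1 was 0.99 without tumor 3. Stat2 passed at 1.05 without tumor 1 and 1.0 without tumor 4, and Spp1 at -1.0 without tumor 1. Schwann cell genes called fell to 1 without tumor 1, 2 or 4, and beta-catenin targets higher to 1 without culture 3. Uncalled genes near 0 changed sign. Zeb2 was -0.018 by library size, -0.26 and -0.25 by limma with pseudocounts of 0.1 and 1 and -0.012 without a filter, and Krt10 was 0.10 and 0.080 by limma. Leaving out 1 library gave -0.039 to 0.043 for Zeb2, -0.085 to 0.012 for Cspg4, -0.55 to 0.017 for Cxcl1, -0.13 to 7.12e-05 for Ddit4 and -0.37 to 0.14 for Lck. The cause was not tested.

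The mean share of tumor counts on genes with at most 3 counts in every culture, 1.39%, became 2.0% at 10 counts and 0.428% at 0 counts. The log2 change of genes with at most 3 counts in every CT-26 tumor rested on 1 gene (0.83), and on 4 genes at 10 counts (0.37), so no further scaling by such genes was run. No paired analysis was possible because the labels carry no replicate numbers. With 3 and 4 libraries an exact permutation test cannot go below 0.0571, and genes at under 0.1 CPM in culture rest on a few counts.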
